A study of Mus musculus with 6 samples.

Results

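The 10 genes followed here belong to the circadian clock: the transcriptional repressors Bhlhe40, Bhlhe41, Per1, Per2, Per3, Cry1, Cry2, Nr1d1 and Nr1d2 and the output gene Dbp. Their RNA was measured in subcutaneous pancreatic tumours of mice given folinic acid. They were taken by symbol from a table of 55357 genes, all 10 were found, and 0 of the symbols was listed more than once. The set was selected on a measured value in 1 case: Bhlhe41 was chosen by its difference between treatments in an earlier analysis of the same tumours. Its levels in the 2 treatments are therefore given as a description with no test. The other 9 were added for their known place in the clock, with those earlier results already known.

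The tumours grew from 250000 cells of KPC1242, a mouse pancreatic ductal adenocarcinoma (PDAC) line, injected under the skin of C57BL/6J mice. The 3 FA tumours came from mice given 2 mg of folinic acid (FA), a reduced folate, by oral gavage each day from day 8 to day 12, and the 3 PBS tumours from mice given phosphate-buffered saline on the same days. All 6 tumours were taken on day 14 and each gave 1 library of total RNA. The hour of harvest is not given in the sources used here, and neither are the age and sex of the mice. The model rests on 1 transplanted line, and the labels do not state that each tumour came from its own mouse, so errors and p-values measure the spread between these tumours. In the sample descriptions all FA tumours share 1 name prefix and all PBS tumours another, whose meaning is not given, so whatever it marks cannot be told apart from the treatment. Values are TPM, a transcript abundance corrected for transcript length and for library total, which keeps no record of depth. FA replicate 3 stood apart over all genes. Over all tested genes (no independent replicates) its Pearson correlation with the rest was 0.949 to 0.968, whereas that among the remaining 5 was 0.981 to 0.987. It held the highest value of all 7 fibroblast, all 6 endothelial, all 6 macrophage and all 9 skeletal muscle markers. The ductal keratin genes Krt19, Krt8 and Krt18, markers of the labelled tumour type, were each at 1071 TPM or more in every tumour.

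The mammalian clock is a loop in which CLOCK and BMAL1 (encoded by Arntl) activate the Period and Cryptochrome genes through E-box elements, and the PER and CRY proteins then enter the nucleus and repress CLOCK and BMAL1. A second loop runs through the REV-ERB nuclear receptors, encoded by Nr1d1 and Nr1d2, which repress Arntl, and DBP is an output factor that activates genes through D-box elements. BHLHE40 and BHLHE41, also called DEC1 and DEC2, are basic helix-loop-helix repressors that bind E-boxes, and both genes are known to be induced in hypoxia. In most tissues these transcripts rise and fall over the day, and bulk RNA from a single harvest gives 1 point of that cycle. In a whole tumour, fewer cells of a type and less RNA per cell cannot be told apart.

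Promoter windows for 8 of the 10 genes were in the RefSeq table for GRCm38.p6, in 9 windows because Per1 has 2 starts. The 250 bases before the start were searched on both strands for the E-box CACGTG, its variant CACGTT, the D-box TTATGTAA or TTACGTAA, the nuclear receptor half-site AGGTCA, the hypoxia response core ACGTG or GCGTG, and the cAMP response element TGACGTCA. The 4 windows shown next hold an E-box or a D-box, the elements through which the clock loop acts. Capitals mark E-boxes, their variant and D-boxes, and each sequence runs 5′ to 3′ on the strand of the gene.
Bhlhe41, chr6:145865421-145865670, minus strand: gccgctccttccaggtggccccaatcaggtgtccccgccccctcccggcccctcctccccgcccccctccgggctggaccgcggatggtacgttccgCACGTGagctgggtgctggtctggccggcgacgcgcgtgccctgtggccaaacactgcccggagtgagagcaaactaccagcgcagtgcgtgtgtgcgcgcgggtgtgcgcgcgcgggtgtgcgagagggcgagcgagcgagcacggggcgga
Per1, chr11:69098699-69098948, plus strand: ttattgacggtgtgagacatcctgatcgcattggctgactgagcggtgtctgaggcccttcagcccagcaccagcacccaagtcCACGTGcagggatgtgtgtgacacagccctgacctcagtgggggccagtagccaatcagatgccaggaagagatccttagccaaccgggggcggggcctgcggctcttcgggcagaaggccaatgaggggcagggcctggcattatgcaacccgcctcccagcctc
Cry1, chr10:85185055-85185304, minus strand: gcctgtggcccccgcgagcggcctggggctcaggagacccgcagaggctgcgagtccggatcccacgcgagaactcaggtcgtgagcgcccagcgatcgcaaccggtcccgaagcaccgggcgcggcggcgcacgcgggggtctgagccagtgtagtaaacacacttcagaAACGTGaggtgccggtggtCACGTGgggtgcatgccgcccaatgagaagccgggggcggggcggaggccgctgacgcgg
Per3, chr4:151044666-151044915, minus strand: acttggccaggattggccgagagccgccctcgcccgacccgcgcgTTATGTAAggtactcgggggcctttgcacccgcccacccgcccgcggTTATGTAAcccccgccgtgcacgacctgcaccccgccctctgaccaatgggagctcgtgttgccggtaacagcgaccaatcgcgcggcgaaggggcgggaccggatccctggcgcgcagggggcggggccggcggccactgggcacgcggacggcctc

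An E-box stood in 3 of the 9 windows, in Bhlhe41 with its first base 153 bases before the start, in Per1 at 166 and in Cry1 at 60, and 6.02% of all 32851 RefSeq windows of this length held one. The variant CACGTT stood in 3 windows, of Cry1, Cry2 and Nr1d1, against 3.85% of all windows. For Cry2 and Nr1d1 the bases soon after the start were not found in a GENCODE M21 transcript of the gene. For the remaining windows they were. The D-box stood in the window of Per3 alone among the 9, as a pair of copies, and in 0.931% of all windows. AGGTCA stood in 2 windows, the first of Per1 and that of Nr1d2, against 14.0%, and TGACGTCA in 0 of the 9, against 1.55%. The hypoxia core stood in all 9 windows, against 38.6% of all windows. It overlaps the E-box and CACGTT in its letters, and the 9 windows had a GC content of 54.8% to 73.6%, against a median of 52.4%. These are matches of letters and say nothing of whether a protein binds there.

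Bhlhe40 was the most abundant of the genes and the Period and Cryptochrome genes the least. Over the 6 tumours Bhlhe40 averaged 143.8 TPM and ranged from 90.6 to 182.5 TPM. Nr1d2 followed at 32.3 TPM and Bhlhe41 at 16.5 TPM, and the ranges of Bhlhe40, Nr1d2 and Bhlhe41 did not overlap each other. Below them came Nr1d1 at 12.9, Dbp at 11.1, Per1 at 9.14, Cry2 at 6.46, Cry1 at 5.69, Per3 at 5.17 and Per2 at 4.79 TPM, and from Bhlhe41 down each gene overlapped the next in range. All 10 had a mean of at least 1 TPM and were tested. The lowest, Per2, stood at the 23.7th percentile of mean level among the 15023 genes tested and Bhlhe40 at the 93.4th.

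**Figure D1:**
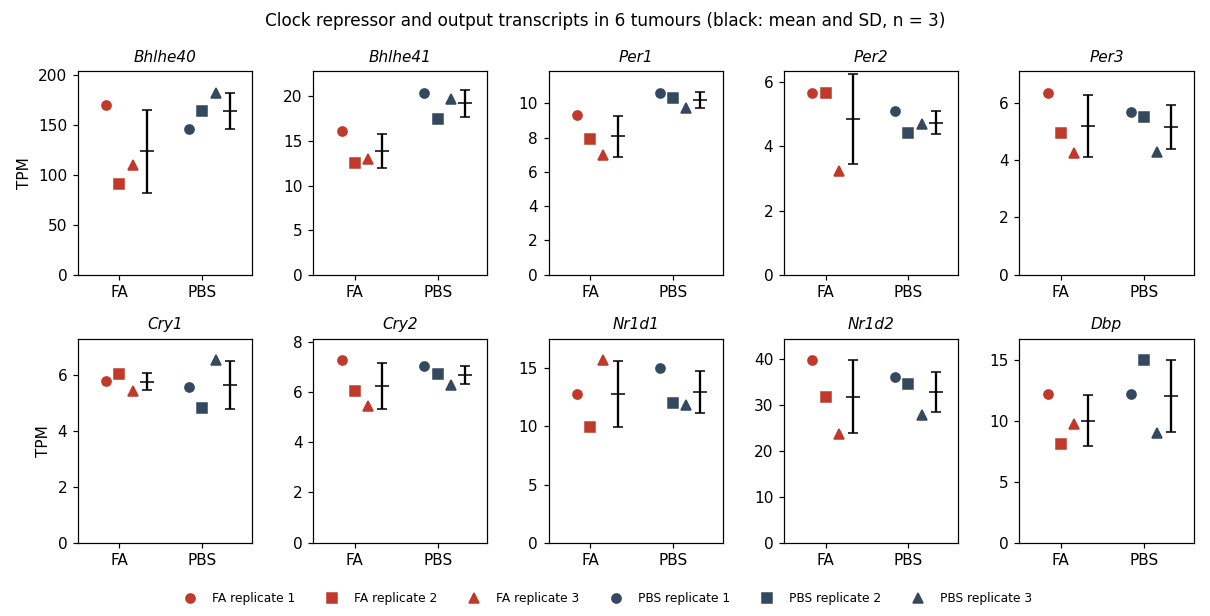
Levels of the 10 genes in TPM (vertical axes from 0) in the 3 FA tumours and the 3 PBS tumours, with the mean and SD of each treatment in black. The FA and PBS points are separate for Bhlhe41 and Per1 and overlap for the other 8 genes.

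Both DEC genes had a lower mean in FA tumours. Bhlhe41 (ENSMUSG00000030256) was at 16.1, 12.6 and 12.9 TPM with FA, against 20.4, 17.5 and 19.7 TPM with PBS. All 3 FA values lay under all 3 PBS values, with FA replicate 1 nearest to them. The means were 13.9 ± 1.93 TPM with FA and 19.2 ± 1.53 TPM with PBS (SD, n = 3 each), a difference of -0.45 in log2(TPM + 1), FA minus PBS, and -0.41 without FA replicate 3. In the GENCODE M21 annotation Bhlhe41 shares 1876 bases with Gm43909 on the opposite strand, an unconfirmed transcript listed here at 1.28, 0.95 and 1.23 TPM with FA and at 1.87, 1.55 and 1.69 TPM with PBS. Whether the authors' counting used the strand is not given, so reads of the overlap could be shared.

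Bhlhe40 (ENSMUSG00000030103) was at 170.4, 90.6 and 109.8 TPM with FA, against 145.7, 163.9 and 182.5 TPM with PBS. FA replicate 1 lay within the PBS range, while FA replicates 2 and 3 lay under every PBS tumour. The means were 123.6 ± 41.6 TPM with FA and 164.0 ± 18.4 TPM with PBS, a log2 difference of -0.45 ± 0.23 (SE) with a 95% interval from -0.99 to 0.09. Leaving out FA replicate 1 gave -0.71, and leaving out FA replicate 2 gave -0.25, so that gene's difference rests on which FA tumours are counted.

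Hypoxia-induced transcripts set the same 2 FA tumours below PBS as Bhlhe40 did. Of 12 hypoxia targets, 12 were lower in FA replicate 2 than in any PBS tumour, and 10 were so in FA replicate 3. The share of all tested genes that lay under every PBS tumour was not counted, so these counts have none beside them. The exceptions there were Slc2a1, highest of the 6 tumours at 129.4 TPM, and Adm, at 16.3 TPM against 14.4 TPM in PBS replicate 2. FA replicate 2 was the lowest of the 6 tumours for 7 of the 12, against 9.71% of all tested genes. FA replicate 3 was the lowest for 5, against 37.5%. In FA replicate 1 all 12 were at or above the lowest PBS tumour. Centred on each gene's mean, the 12 averaged 0.37, -0.54 and -0.31 in log2(TPM + 1) with FA and 0.26, 0.093 and 0.13 with PBS. Vegfa, an angiogenic growth factor, was at 196.8, 122.5 and 128.9 TPM with FA and at 182.7, 181.3 and 186.3 TPM with PBS. Bnip3, a mitophagy receptor, was at 177.9, 73.0 and 83.8 TPM with FA and at 155.1, 133.7 and 154.1 TPM with PBS. The 2 treatments overlapped for all 12 and 0 of the 12 passed the threshold, with a median log2 difference of -0.30, and -0.20 without FA replicate 3. The part of these transcripts in the DEC levels was not tested.

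The Period genes, which encode the partners of the cryptochromes in the repressor complex, had unlike patterns over the tumours. Per1 (ENSMUSG00000020893) was at 9.31, 7.94 and 6.97 TPM with FA, against 10.6, 10.3 and 9.72 TPM with PBS. The groups did not overlap, and the gap between the nearest FA and PBS tumours was small beside the spread within FA. Means were 8.07 ± 1.18 TPM with FA and 10.2 ± 0.46 TPM with PBS, a log2 difference of -0.31 ± 0.12, and -0.22 without FA replicate 3. Per2 (ENSMUSG00000055866) was at 5.66, 5.67 and 3.23 TPM with FA and at 5.10, 4.40 and 4.70 TPM with PBS. FA replicate 3 was the lowest of the 6 and the other 2 FA tumours were the highest, so the mean difference was 0.0004 ± 0.20, and without FA replicate 3 it was 0.22. Per3 (ENSMUSG00000028957), which is least needed for rhythm in mice, was at 6.36, 4.95 and 4.26 TPM with FA and at 5.68, 5.50 and 4.27 TPM with PBS. Its groups overlapped over most of their range, with a log2 difference of 0.0032 ± 0.17 and an interval from -0.41 to 0.41. Per3 shares its locus in GENCODE M21 with Camta1 on the same strand, so some of its reads may be ambiguous.

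The cryptochrome genes had the smallest ratios of highest to lowest tumour among the 10. Cry1 (ENSMUSG00000020038), the stronger repressor of the pair, was at 5.80, 6.03 and 5.43 TPM with FA and at 5.57, 4.81 and 6.52 TPM with PBS. The FA values lay within the PBS range, with a log2 difference of 0.033 ± 0.13 and an interval from -0.29 to 0.35. Cry2 (ENSMUSG00000068742) was at 7.25, 6.03 and 5.45 TPM with FA and at 7.03, 6.70 and 6.29 TPM with PBS. FA replicate 1 was the highest and FA replicate 3 the lowest of the 6, with a log2 difference of -0.090 ± 0.13.

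The REV-ERB genes took opposite extremes in FA replicate 3. Nr1d2 (ENSMUSG00000021775), which encodes REV-ERB beta, was at 39.7, 31.8 and 23.8 TPM with FA and at 36.0, 34.5 and 27.8 TPM with PBS. The FA tumours held both the highest and the lowest value, and the log2 difference was -0.064 ± 0.19, and 0.12 without FA replicate 3. Nr1d1 (ENSMUSG00000020889), which encodes REV-ERB alpha, was at 12.8, 9.98 and 15.7 TPM with FA and at 15.0, 12.0 and 11.8 TPM with PBS. FA replicate 3 was here the highest of the 6, and the log2 difference was -0.028 ± 0.18, and -0.17 without that tumour. The 3′ end of Nr1d1 overlaps that of Thra, a thyroid hormone receptor gene on the opposite strand, by 1075 bases in GENCODE M21. Thra was at 59.8, 59.1 and 33.7 TPM with FA and at 53.8, 54.8 and 55.6 TPM with PBS, so it was lowest in FA replicate 3, where Nr1d1 was highest.

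Dbp (ENSMUSG00000059824), the D-box activator, was at 12.2, 8.09 and 9.78 TPM with FA and at 12.2, 15.0 and 9.03 TPM with PBS. The groups overlapped, with means of 10.0 ± 2.09 TPM with FA and 12.1 ± 2.98 TPM with PBS and a log2 difference of -0.24 ± 0.21. Dbp shares 737 bases with Sphk2 on the opposite strand, and Sphk2 was at 14.4, 16.2 and 16.8 TPM with FA and at 13.8, 15.8 and 14.5 TPM with PBS.

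No clock gene passed the test of FA against PBS. By limma on log2(TPM + 1), 0 of the 15023 tested genes had a Benjamini-Hochberg adjusted p under 0.05, so the share called was 0%, and 192 genes, or 1.28%, had an unadjusted p under 0.05. The adjusted p from limma was 1 for each of the 9 genes other than Bhlhe41. A missed threshold does not show that levels were alike, and the 95% intervals of these 9 reached as far as -0.99 for Bhlhe40 and 0.49 for Per2. Leaving Bhlhe41 out, since it was picked for this contrast, means on the log2 scale were lower in FA for 6 of the other 9 genes, against 49.3% of all tested genes, and for 5 of the 9 without FA replicate 3. The median log2 difference of these 9 was -0.064, against 0.0016 over all tested genes. Without FA replicate 3 it was -0.0098, against 0.013. The 2 groups were separate for 1 of the 9, Per1, which was lower with FA, and they were separate for 4.69% of all tested genes, 2.22% lower and 2.48% higher with FA.

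**Figure D2:**
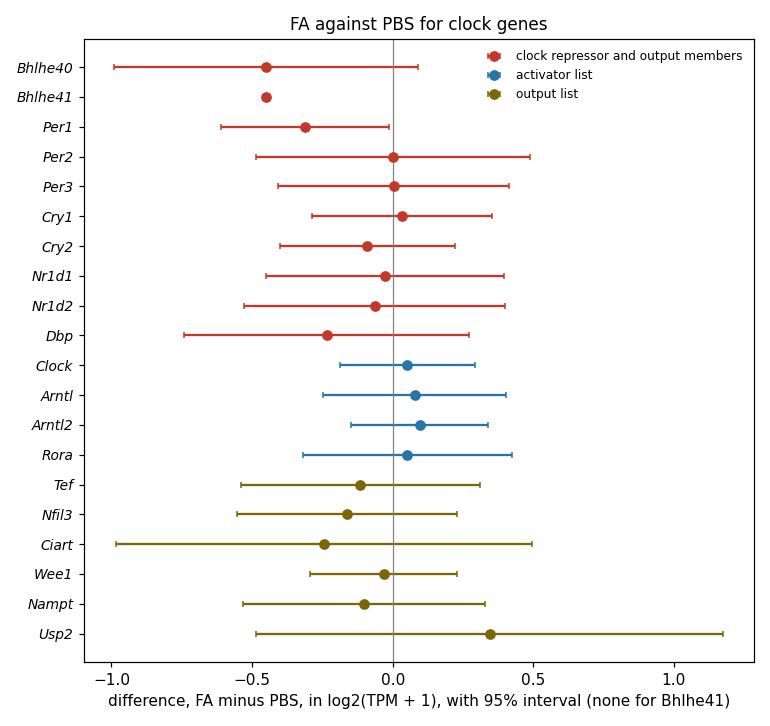
Difference between FA and PBS tumours in log2(TPM + 1) (horizontal axis, FA minus PBS) for the 10 genes, 4 genes of the activator list and the 6 tested genes of the output list, with 95% intervals from limma for all but Bhlhe41, which was chosen for this contrast. The intervals include 0 for all genes drawn with one except Per1, whose adjusted p was 1.

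Activators of the loop showed no call in FA against PBS. Of 7 activator genes 5 were tested, 4 had a higher and 1 a lower mean in FA tumours, and 0 passed the threshold. Their median log2 difference was 0.052. Over all 15023 tested genes, 7618 had a higher mean with FA. Arntl was at 8.50, 9.08 and 8.69 TPM with FA and at 7.38, 7.52 and 10.1 TPM with PBS, and Clock averaged 12.6 ± 0.493 TPM with FA and 12.1 ± 1.06 TPM with PBS. Arntl2, a paralogue of Arntl, was more abundant than Arntl, at 33.2 ± 2.69 TPM with FA and 31.0 ± 3.03 TPM with PBS. Npas2, a paralogue of Clock, averaged under 1 TPM and was not tested, at 0.51, 0.64 and 0.79 TPM with FA and 0.34, 0.47 and 0.41 TPM with PBS. Those values did not overlap, and the share of separate genes at so low a level was not counted.

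Output and modifier genes showed no call either. Of 7 output genes 6 were tested, 1 with a higher and 5 with a lower mean log2 value in FA tumours, with a median difference of -0.11, and -0.017 without FA replicate 3. Ciart, a CLOCK and BMAL1 repressor also called CHRONO, was at 9.30, 3.49 and 5.53 TPM with FA and at 8.82, 5.97 and 6.34 TPM with PBS. As for Bhlhe40, FA replicates 2 and 3 lay under every PBS tumour and FA replicate 1 did not. Nfil3, a repressor at D-boxes, was at 16.1, 10.3 and 14.7 TPM with FA and at 14.8, 15.1 and 15.8 TPM with PBS. Tef, a D-box activator like Dbp, was at 35.3, 30.3 and 22.0 TPM with FA and at 35.3, 29.4 and 29.1 TPM with PBS. Among 9 genes for kinases, ubiquitin ligase subunits and partners of PER and CRY, all tested, 1 had a higher and 8 a lower mean, with a median difference of -0.039, and -0.0062 without FA replicate 3. Csnk1e, a kinase of the PER proteins, averaged 117.0 ± 7.71 TPM with FA and 121.3 ± 2.04 TPM with PBS. Of 7 relatives of the DEC genes in the HES and HEY families, 4 were tested and 0 passed. Hes6 did not overlap, at 35.5, 35.0 and 31.8 TPM with FA and 39.3, 38.5 and 37.8 TPM with PBS. Of all tested genes, 2.22% were likewise separate and lower with FA. Hes1, a Notch target, averaged 90.3 ± 2.69 TPM with FA and 79.9 ± 8.19 TPM with PBS.

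Signals known to reset Per1, glucocorticoids and the serum and cAMP response, were read from their own gene lists. The 8 genes of the glucocorticoid list include Nr3c1, the gene of the receptor itself, which is not a target. Of the 8, 7 were tested, 2 with a higher and 5, Nr3c1 among them, with a lower mean in FA tumours. The median log2 difference was -0.041, the value of Nr3c1, and 0.012 without FA replicate 3. Fkbp5, a chaperone partner of the glucocorticoid receptor, averaged 34.6 ± 3.85 TPM with FA and 30.1 ± 1.68 TPM with PBS. Of 8 immediate early genes, all tested, 5 had a higher and 3 a lower mean, with a median log2 difference of 0.038, and -0.016 without FA replicate 3. Junb did not overlap and was higher, at 178.7, 183.7 and 242.6 TPM with FA and 162.6, 166.1 and 177.0 TPM with PBS. Nr4a2, an orphan nuclear receptor, did not overlap and was lower, at 6.95, 7.12 and 3.42 TPM with FA and 7.33, 7.34 and 7.20 TPM with PBS. Leaving out FA replicate 3 took the log2 difference of Junb to 0.10, against 0.24 with all 6 tumours, and that of Nr4a2 to -0.045, against -0.33. In both lists 0 genes passed the threshold. Of all tested genes, 2.48% were separate and higher with FA, as Junb was, and 2.22% separate and lower, as Nr4a2 was.

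Tumours of the same treatment also differed from each other in their clock genes. FA replicate 3 was the lowest of the 6 tumours for 5 of the 10 genes, Per1, Per2, Per3, Cry2 and Nr1d2, and 37.5% of all tested genes were lowest in that tumour. FA replicate 2 was the lowest for 4, Bhlhe40, Bhlhe41, Nr1d1 and Dbp, against 9.71% of all tested genes. Bhlhe41 was chosen for its difference between treatments, and all its FA values lay under all its PBS values. Its lowest tumour was thus bound to be an FA tumour, so its place in that count is no separate evidence. FA replicate 1 was the lowest for 0 of the 10 and the highest for 3, Per3, Cry2 and Nr1d2, against 13.5% lowest and 18.9% highest over all tested genes. Highest over lowest TPM ran from 1.33 for Cry2 and 1.36 for Cry1 to 1.85 for Dbp and 2.01 for Bhlhe40. The SD within treatment was 0.35 in log2 for Bhlhe40, at the 84.8th percentile of all tested genes, 0.31 for Dbp (81.2nd), 0.29 for Nr1d2 (79.1st) and 0.27 for Per2 (77.2nd). It was 0.14 for Cry2 (40.7th) and for Per1 (41.3rd), and 0.15 for Bhlhe41 (46.5th), against a median of 0.16.

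**Figure D3:**
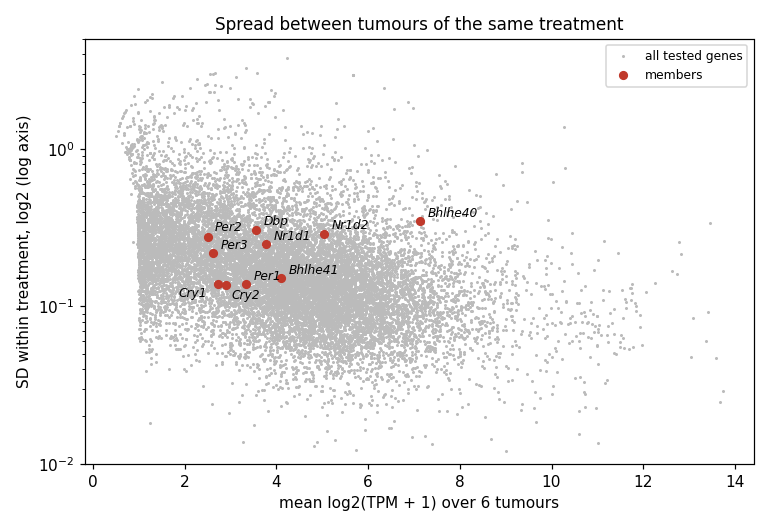
SD of log2(TPM + 1) between tumours of the same treatment (vertical log axis) against the mean over 6 tumours (horizontal axis), with the 10 genes in red over all 15023 tested genes in grey. Bhlhe40 has the largest SD of the 10, 0.35, and Cry2 the smallest, 0.14.

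Summed markers of each cell type list were highest in FA replicate 3, the tumour lowest for 5 of the 10 clock genes and for 37.5% of all tested genes. A sum is carried by its most abundant genes. By single genes, that tumour was highest for 3 of 6 tumour epithelium, 4 of 5 adipocyte and 3 of 4 T cell markers. It was the lowest of the 6 for Cdh1, an epithelium marker, at 252.9 TPM. Over all tested genes it was highest for 29.4%. The summed fibroblast markers were at 1903 to 6523 TPM with FA and 1833 to 3528 TPM with PBS, with 6 of 7 higher on average in FA on the log2 scale. The endothelial sum was at 53.0 to 221.9 TPM with FA and 57.8 to 97.2 TPM with PBS, and the macrophage sum at 294.2 to 543.1 and 277.0 to 354.3 TPM, with 6 of 6 members higher on average in FA in both lists. The skeletal muscle sum was at 12.8 to 1187 TPM with FA and 14.6 to 174.8 TPM with PBS, with all 8 tested markers higher on average in FA. Of its genes, Ckm, Myh1 and Myh4 were listed at 0 in FA replicate 1 and PBS replicate 2. In those tumours Tnni2 was at 10.6 and 12.3 TPM, Mylpf at 1.71 and 1.9 TPM, and the rest of the list under 1 TPM. The adipocyte sum was at 24.3 to 169.6 and 33.5 to 70.4 TPM, with Lep and Plin1 under 1 TPM on average, and the T cell sum at 2.72 to 5.27 and 2.12 to 3.02 TPM, with Trac alone tested. The tumour epithelium sum was at 5000.5 to 5612 TPM with FA and 4603 to 5304 TPM with PBS. For 4 of these lists the median turned below 0 without FA replicate 3. The median log2 difference was then -0.17 for fibroblast markers, against 0.32 with all 6 tumours, -0.23 for endothelial markers, against 0.36, and -0.76 for the 8 tested muscle markers, against 0.92. That of macrophage markers was -0.0047, against 0.24. Without that tumour 1 of 7 fibroblast, 0 of 6 endothelial, 3 of 6 macrophage and 1 of 8 muscle markers had a higher mean in FA, while all 6 tumour epithelium markers still did. The part of these cells in the clock values of FA replicate 3 was not tested.

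The genes most like Bhlhe41 and Bhlhe40 over the 6 tumours were found by the root mean square difference between centred log2 profiles, among genes of at least 5 TPM and similar spread. For Bhlhe41, 2416 genes were compared, and the nearest were Pcbp3 (0.095), Erc2 (0.11), Mapre3 (0.11), Arrdc3 (0.11) and Fggy (0.11). For Bhlhe40, whose SD within treatment was the largest of the 10, 1321 genes were compared. Ddit4, a hypoxia- and stress-induced inhibitor of mTORC1, was the nearest at 0.055, with 109.1, 58.8 and 67.9 TPM with FA and 86.4, 109.6 and 113.1 TPM with PBS. Like Bhlhe40, Ddit4 was lowest in FA replicate 2 and highest in PBS replicate 3. It was picked for its likeness, so these shared extremes are no separate evidence. Arrdc3 (0.12), Vegfa (0.13), the oxygen sensor gene Egln1 (0.15) and the stress factor gene Ddit3 (0.15) followed. These are likenesses over 6 tumours among many genes compared.

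**Figure D4:**
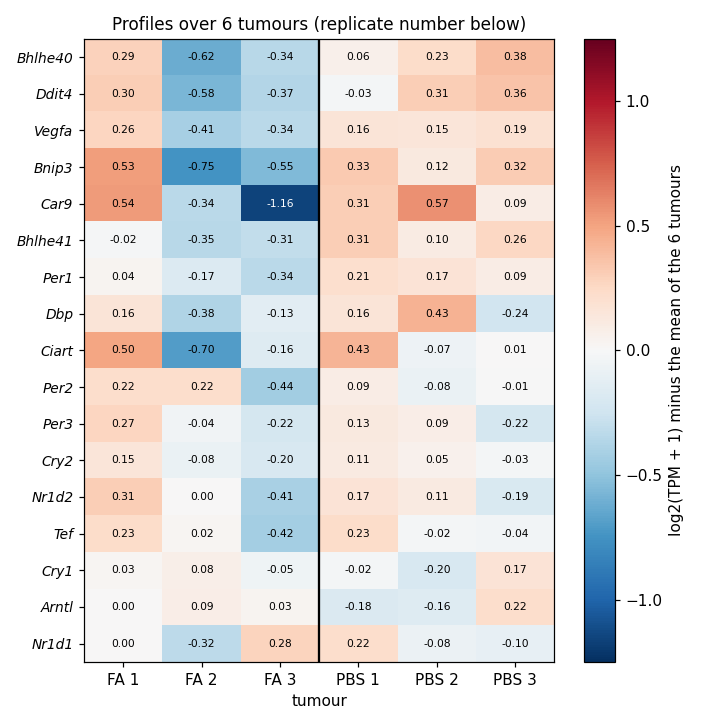
log2(TPM + 1) minus the mean of the 6 tumours (colour and printed value) for clock genes, the hypoxia targets Vegfa, Bnip3 and Car9, and Ddit4, with FA tumours left of the line and PBS tumours right. Bhlhe40, Ddit4 and the hypoxia targets drawn are below 0 in FA replicates 2 and 3 and above 0 in FA replicate 1. Ddit4 was picked for its likeness to Bhlhe40. Slc2a1, a hypoxia target not drawn, was the highest of the 6 tumours in FA replicate 3, at 129.4 TPM. Adm, also not drawn, was at 16.3 TPM there, against 14.4 TPM in PBS replicate 2. Per2, Nr1d2 and Tef are lowest in FA replicate 3.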

How the data were processed

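The authors deposited 1 table of TPM for 55357 Ensembl genes in 6 tumours, and RSEM, featureCounts, STAR and FastQC appear in the submitters' processing notes, where neither version nor role is stated. Per the labels' protocols, the libraries were stranded total RNA. The genome build of the table is not given in the sources used here. Columns were matched to tumours by the sample descriptions. Depth is unknown, so no counting interval is given.

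With limma 3.58.1 in R 4.3.3, log2(TPM + 1) was fitted for FA against PBS without covariates. The 15023 genes averaging 1 TPM or more were tested, with a mean-variance trend, two-sided p-values, Benjamini-Hochberg adjustment and a threshold of 0.05. The pseudocount of 1 makes differences of low genes smaller. Errors beside TPM are SD (n = 3), and those beside log2 differences are SE. The fit was tested on simulated data. Alternatives were other pseudocounts, filters, scalings, variance models and weights, the replicate block and leaving out each tumour.

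The members and the 15 lists (102 genes, all found) were chosen with earlier results of these data known. Named genes are the members, up to 4 per list by the smallest unadjusted p or where a result turns on them, and the 5 nearest profiles of Bhlhe41 and of the member with the largest SD, without predicted gene models. Values of 1 activator gene are not reported here. Npas2 and the overlapping genes other than Thra were named after their values were seen. Promoters are from RefSeq for GRCm38.p6 and were not joined to coordinates of the table.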

Additional observations from a re-analysis of the deposited data

How the results depend on the processing

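The counts from limma, 0 genes higher and 0 lower with FA, moved in 2 alternatives. Without the filter, on 31347 genes above 0 in some tumour, 2 genes were higher, and dropping single tumours gave between 0 and 1 lower genes, the 1 without FA replicate 3. The smallest adjusted p of the 9 tested clock genes over all alternatives was 0.829, and the median difference of all genes stayed within 0.017 of 0. Apart from leaving out a tumour, values that turned sign lay from -0.044 to 0.10. Per2 was at -0.0071 and -0.0031 with pseudocounts of 0.1 and 0.5, at -0.0036 with median-ratio rescaling and at -0.044 with quantile normalization. Per3 was at -0.0001 and -0.035 under those 2 scalings, and Nr1d2 at 0.10 with array weights, whose estimate stopped short of its tolerance. Leaving out 1 tumour gave ranges from -0.11 to 0.22 for Per2, -0.13 to 0.11 for Per3, -0.059 to 0.13 for Cry1, -0.17 to 0.13 for Nr1d1 and -0.24 to 0.12 for Nr1d2. Leaving out 1 tumour kept the sign for Bhlhe40 (-0.71 to -0.25), Dbp (-0.41 to -0.077) and Cry2 (-0.19 to -0.0098). For Per1 (-0.41 to -0.22) and Bhlhe41 (-0.55 to -0.39), whose groups did not overlap, leaving out 1 tumour could not turn the sign. Their kept sign is therefore no test. The cause of these changes was not tested. With a mean of at least 5 TPM, Per2 was not among the genes fitted. The replicate block gave 0 higher and 0 lower genes. Same-numbered tumours did not deviate together, with correlations across genes of -0.21, 0.053 and -0.022. For 0 of 6 tumours was the best correlation that with its own number. In the sample descriptions replicate 1 of both treatments has the same name ending, and so has replicate 2. What these endings mark is not given. Deviations from means of 3 tumours cannot exclude a pairing. Limits set by depth cannot be judged from TPM.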
